A study of Homo sapiens with 6 samples.

Results

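The genes described here are 5 metallothioneins (MT1E, MT1F, MT1G, MT1X and MT2A), the zinc-sensing transcription factor MTF1 and the zinc exporter SLC30A1. They were chosen by name, as the rows of the deposited expression table whose gene name is one of these symbols, and they make up 7 of its 27918 genes and loci. The choice was made with results of the same comparison known, so their differences between the groups are given as a description, without tests. All samples were HCT-116 cells, an established human colorectal carcinoma line, transfected with 10 nM of a GapmeR, an antisense oligonucleotide with a DNA center that directs RNase H to the RNA it pairs with. In 3 libraries the GapmeR was the negative control (GapNC), and in 3 it was directed at the lncRNA CASC9 (GapC9). Each group rests on 1 GapmeR in 1 cell line, and RNA was collected 24 h after transfection by the description in the results and 48 h by that in the methods. Poly(A) RNA was sequenced as paired ends, and the values are FPKM, fragments per kilobase of transcript and per fixed number of mapped fragments, which can be compared between genes because they are per length. Nothing in the labels says that the 3 libraries of a group came from separate cultures, so spreads and p-values cover these libraries and may be technical.

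Metallothioneins are small proteins in which cysteines bind zinc, copper and cadmium, and they buffer free zinc and take up toxic metals. Their genes are induced by MTF1, which binds metal response elements in promoters when zinc in the cell rises, and by glucocorticoids. MTF1 also induces SLC30A1, also known as ZnT1, which moves zinc out of the cell across the plasma membrane, so that storage and export normally respond to the same signal. In the intestinal epithelium these proteins take part in the handling of dietary zinc.

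The libraries differed little in estimated depth. The commonest step between low values, read as 1 fragment, corresponds to 22.7 to 24.4 M (mega) fragments per library. The summed FPKM was 152661 to 166816, which does not measure depth because FPKM is already relative to the mapped fragments. The targeted RNA was not lower under its GapmeR, but it was near 0 in the controls, so a fall could not be seen. CASC9 was listed at 0, 0.0108 and 0 FPKM in the GapNC libraries. In the libraries labelled GapC9 it was listed at 0.0528, 0.107 and 0 FPKM. The knockdown thus cannot be checked here, and every direction below follows the labels alone. By RT-qPCR, the paper reports reduced CASC9 in HCT-116 cells given the CASC9 GapmeR. Of 6 epithelial markers, EPCAM, KRT8, KRT18, KRT19 and CDH1 were expressed (from 10.9 FPKM for the lowest group mean of CDH1 upward), whereas CDH17 was near 0. Of 7 markers of blood, fibroblasts and endothelium, PTPRC, CD3E, PDGFRB, PECAM1 and VWF were near 0, while COL1A1 (1.23 ± 0.273 against 1.20 ± 0.123 FPKM) and COL3A1 (3.43 ± 0.615 against 3.51 ± 0.404 FPKM, SD, n = 3) were detected. With limma, 0 markers of either list passed an adjusted p of 0.05, and 1 (epithelial) was higher at an unadjusted p under 0.05, as were 1457 of all 16028 genes tested. Base composition set GapNC replicate 1 apart. Over 10117 genes, the Spearman correlation of GC content with a library's departure from the mean of each gene was 0.616 in that library, 0.01 and −0.104 in the other GapNC libraries, and 0.029, −0.336 and −0.376 in the libraries labelled GapC9. These are correlations across genes within a library, and genes are not independent replicates.

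The 5 metallothionein genes lie in a cluster on chromosome 16 of GRCh38 with their closest relatives. MT2A is at chr16:56608199-56609497, MT1E at chr16:56625475-56627112, MT1F at chr16:56657694-56660698 and MT1X at chr16:56682424-56684196, all on the plus strand, and MT1G is at chr16:56666731-56668065 on the minus strand. MTF1, at chr1:37809567-37859620, and SLC30A1, at chr1:211571568-211578742, are both on the minus strand of chromosome 1. Each metallothionein has 3 coding exons, which together hold 186 bases with the stop codon. The coding sequences are printed to show how little separates the genes whose levels are compared below, with cysteine codons in capitals, 5′ to 3′ on the coding strand, from the GENCODE transcripts of GRCh38.
MT1E: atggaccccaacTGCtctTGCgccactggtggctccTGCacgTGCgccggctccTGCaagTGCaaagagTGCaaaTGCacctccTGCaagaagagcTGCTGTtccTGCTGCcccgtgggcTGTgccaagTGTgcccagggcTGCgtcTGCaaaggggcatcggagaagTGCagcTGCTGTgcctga
MT2A: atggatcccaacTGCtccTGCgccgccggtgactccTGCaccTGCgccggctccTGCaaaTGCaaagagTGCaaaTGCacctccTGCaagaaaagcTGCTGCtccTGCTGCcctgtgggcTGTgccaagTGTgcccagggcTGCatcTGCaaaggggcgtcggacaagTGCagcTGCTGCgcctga
MT1X: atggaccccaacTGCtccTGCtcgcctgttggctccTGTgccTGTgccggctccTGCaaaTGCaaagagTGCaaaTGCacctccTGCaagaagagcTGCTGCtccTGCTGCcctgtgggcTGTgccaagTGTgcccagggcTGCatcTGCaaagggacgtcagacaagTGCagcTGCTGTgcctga
MT1F: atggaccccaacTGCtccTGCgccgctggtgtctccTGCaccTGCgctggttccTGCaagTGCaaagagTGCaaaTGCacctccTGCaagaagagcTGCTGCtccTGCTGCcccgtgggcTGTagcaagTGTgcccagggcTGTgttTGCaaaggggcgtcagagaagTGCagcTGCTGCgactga
MT1G: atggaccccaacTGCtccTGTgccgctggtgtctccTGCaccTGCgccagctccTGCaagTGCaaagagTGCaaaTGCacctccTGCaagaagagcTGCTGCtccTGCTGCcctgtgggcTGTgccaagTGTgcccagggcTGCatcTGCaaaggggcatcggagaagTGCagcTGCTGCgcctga
Each has 61 codons before the stop, and 20 of them encode cysteine, in every one of the 5 genes. Identity between pairs of these coding sequences was 88.7% (MT1F and MT1X) to 95.2% (MT1G and MT2A), and MT1E and MT2A shared 92.5% of their bases. Reads from such genes can be assigned to a relative, and the share of sequence held in common differs between members. Of the 50-base windows of its spliced transcript, MT1E shared 5.34% with another gene, most with the pseudogenes MT1JP and MT1P3. The share was 4.88% in MT2A and 3.59% in MT1F, but 45.1% in MT1X and 20.2% in MT1G. These are shares of windows, and the share of paired reads that could be misassigned was not measured. Most shared windows of MT1X belong to AC026461.1, a transcript that overlaps it on the same strand and was not analysed here. MTF1 shared 0.644% of its windows and SLC30A1 none (0%).

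MT1E, a metallothionein of the MT1 group, had the largest difference of the 7 genes. It stood at 97.1, 91.7 and 78.6 FPKM in GapNC replicates 1, 2 and 3, and at 19.7, 30.5 and 27.2 FPKM in the libraries labelled GapC9. The lowest GapNC value lies well above the highest value under the CASC9 GapmeR, and the groups do not overlap. The mean was 89.1 ± 9.51 FPKM (SD, n = 3) against 25.8 ± 5.52 FPKM (SD, n = 3), which is 3.45-fold lower. On the log2(FPKM + 0.1) scale the difference was −1.80 with a standard error of 0.19. At the reference transcript's length these levels correspond to about 1350 to 1550 fragments per library in GapNC and 320 to 520 in GapC9. By its mean over the 6 libraries, MT1E was more abundant than 97.5% of all genes tested. In bulk RNA, fewer cells that express a gene and less of its RNA per cell cannot be told apart.

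MT2A, the most widely expressed human metallothionein, was as abundant as MT1E in the controls and differed less. Its values were 119, 71.1 and 74.2 FPKM in GapNC and 37.2, 62.1 and 52.5 FPKM in GapC9. The groups do not overlap, but 71.1 and 62.1 FPKM are neighbors, and GapNC replicate 1 is far above the other controls. The mean was 88.1 ± 26.9 FPKM (SD, n = 3) against 50.6 ± 12.6 FPKM (SD, n = 3), 1.74-fold lower, with a log2 difference of −0.79 and a standard error of 0.27. Without GapNC replicate 1, the library with the strong relation to GC content, the log2 difference was −0.55. The spliced transcript of MT2A is 63.0% G and C and that of MT1E 59.5%, and the values after a correction for GC content are given at the end.

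MT1X was expressed at a lower level and was also lower in all libraries labelled GapC9. It stood at 6.01, 5.55 and 6.12 FPKM in GapNC and at 4.07, 3.91 and 5.08 FPKM in GapC9. The controls lie close together and the groups do not overlap, although the gap between 5.55 and 5.08 FPKM is small. The mean was 5.89 ± 0.30 FPKM (SD, n = 3) against 4.35 ± 0.634 FPKM (SD, n = 3), with a log2 difference of −0.44 and a standard error of 0.14. These levels correspond to about 42.2 to 67.1 fragments per library, on a transcript of which a large share is not unique to the gene.

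The other metallothioneins were rare. MT1F stood at 0.423, 1.11 and 0.918 FPKM in GapNC and at 0.542, 0.692 and 0.556 FPKM in GapC9, so that the groups overlap. Its log2 difference was −0.32 with a standard error of 0.34, from about 6.64 to 17.8 fragments per library. It was −0.68 without GapNC replicate 1 and −0.07 without GapNC replicate 2. MT1G was listed at 0 in the 3 GapNC libraries and in GapC9 replicates 2 and 3, and at 0.0368 FPKM in GapC9 replicate 1, which is less than the value of 1 fragment. It did not reach the mean of 0.1 FPKM required for the fit and has no log2 difference.

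MTF1, the transcription factor upstream of the metallothionein genes, was scattered. It stood at 7.56, 3.16 and 7.95 FPKM in GapNC and at 3.32, 5.88 and 4.52 FPKM in GapC9. GapNC replicate 2 is the lowest of all 6 libraries, and the groups overlap. The mean was 6.22 ± 2.66 FPKM (SD, n = 3) against 4.57 ± 1.28 FPKM (SD, n = 3), and the log2 difference of −0.36 had a standard error of 0.41. It was −0.79 without GapNC replicate 2 and −0.13 without GapNC replicate 3. MTF1 contains a processed pseudogene on the opposite strand, AL929472.4, and whether the counting used strand is not given in the sources used here.

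SLC30A1 went the other way. It stood at 3.58, 5.19 and 5.78 FPKM in GapNC and at 6.38, 7.91 and 9.11 FPKM in GapC9. Every library labelled GapC9 is above every GapNC library, with the nearest values at 5.78 and 6.38 FPKM. The mean was 4.85 ± 1.14 FPKM (SD, n = 3) against 7.80 ± 1.37 FPKM (SD, n = 3), a ratio of 1.61, with a log2 difference of 0.69 and a standard error of 0.22. MT1E, MT2A and MT1X were thus lower, and the exporter induced by the same transcription factor higher, in the same libraries. These genes also differ in base composition. The spliced transcript of SLC30A1 is 38.0% G and C, against 59.5% for MT1E, 63.0% for MT2A and 50.9% for MT1X. Over the genes tested, the log2 difference had a Spearman correlation of −0.25 with GC content. What base composition adds to the opposite directions was not tested.

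**Figure D1:**
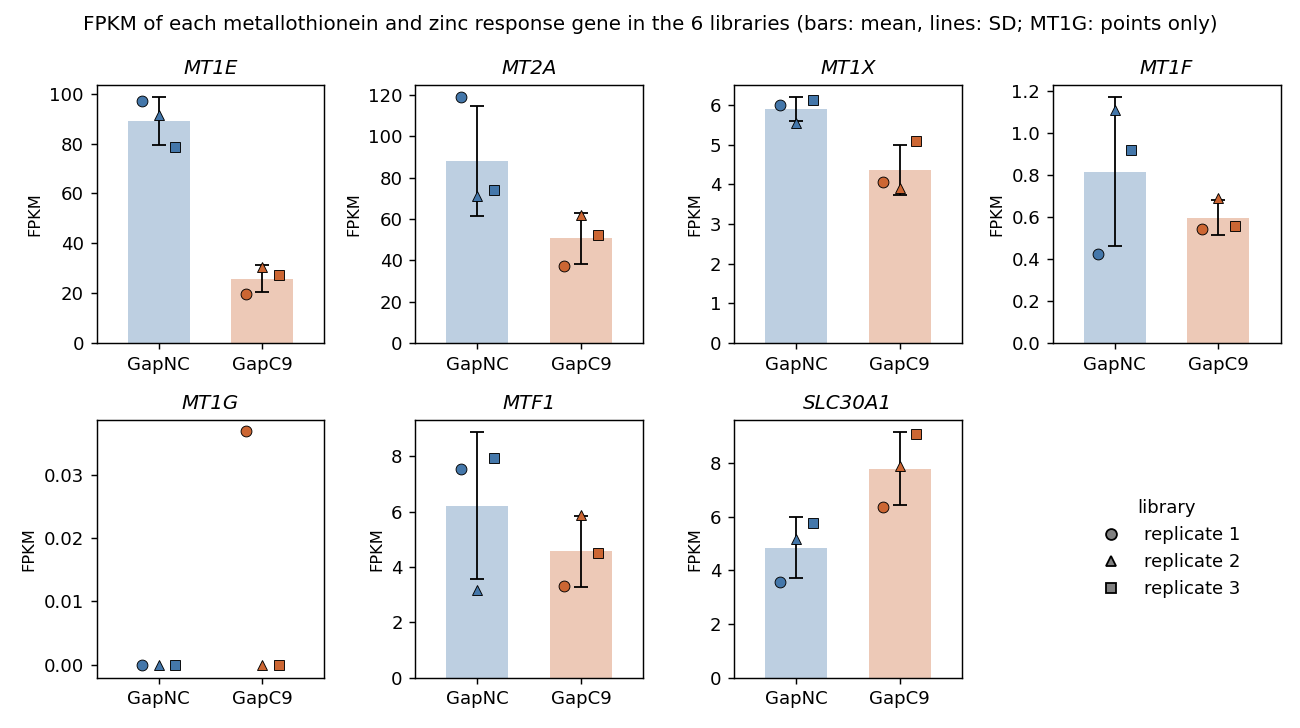
FPKM (linear axes, a separate scale for each gene) of the 7 genes in the 3 GapNC libraries (blue) and the 3 libraries labelled GapC9 (orange), with symbols for the replicate, bars for the mean and lines for the SD; MT1G is drawn as points only. MT1E, MT2A and MT1X lie lower and SLC30A1 higher in all libraries labelled GapC9, whereas MT1F and MTF1 overlap between the groups.

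Of the 7 genes, 6 passed the filter on low values. The counts below are those of a contrast that was known when the genes were chosen, and nothing is read from them. With limma over all 16028 genes tested and an adjusted p under 0.05, 1 of the 6 (MT1E) was lower and 0 were higher, where 5.1% of all genes were lower and 1.89% higher. MT1E passed in 3 of the 6 fits with 1 library left out, and not without GapNC replicate 2, GapC9 replicate 2 or GapC9 replicate 3, nor with a replicate block. By a ratio of mean FPKM of at most 0.5 or at least 2 with an unadjusted p under 0.05, MT1E alone was again below the threshold, beside 4.32% lower and 2.1% higher among all genes. The groups did not overlap for 4 of the 6, with MT1E, MT2A and MT1X lower and SLC30A1 higher, and this held in the lower direction for 21.6% and in the higher direction for 12.6% of all genes. The median log2 difference was −0.40 over the 6 genes and −0.076 over all genes tested.

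The summed level of the metallothioneins was lower in the libraries labelled GapC9, and MT1E made up less of it. The FPKM of all 9 metallothionein rows was summed, since reads can be split between near-identical genes. The sum depends less on that split than a single row, though still in part, because FPKM is per length and the transcripts differ in length. The sum was 223.6, 169.7 and 160.1 FPKM in GapNC and 63.12, 97.93 and 85.94 FPKM in GapC9. All 3 controls are above all 3 libraries of the other group. The mean sum was 184 ± 34.2 FPKM (SD, n = 3) against 82.3 ± 17.7 FPKM (SD, n = 3), a ratio of 0.446. MT1E and MT2A together made up 90.1% to 96.7% of the sum in each library. MT1E contributed 48.8% ± 5.31 (SD, n = 3) of it in GapNC and 31.3% ± 0.265 (SD, n = 3) in GapC9, while MT2A contributed 47.2% ± 5.75 and 61.2% ± 2.30 (SD, n = 3 each). Within each library, the ratio of MT1E to MT2A was 0.815, 1.29 and 1.06 in GapNC, and 0.531, 0.491 and 0.518 in GapC9. It does not change with any scaling of a whole library. MT1E was the more abundant of the pair in GapNC replicates 2 and 3, and MT2A in the other 4 libraries. The ratio of MT1E to MT1X was 16.2, 16.5 and 12.8 in GapNC and 4.85, 7.80 and 5.35 in GapC9, again without overlap, whereas that of MT2A to MT1X (19.8, 12.8 and 12.1 against 9.13, 15.9 and 10.3) overlapped. The ratios were formed from genes chosen on this contrast and have no test.

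**Figure D2:**
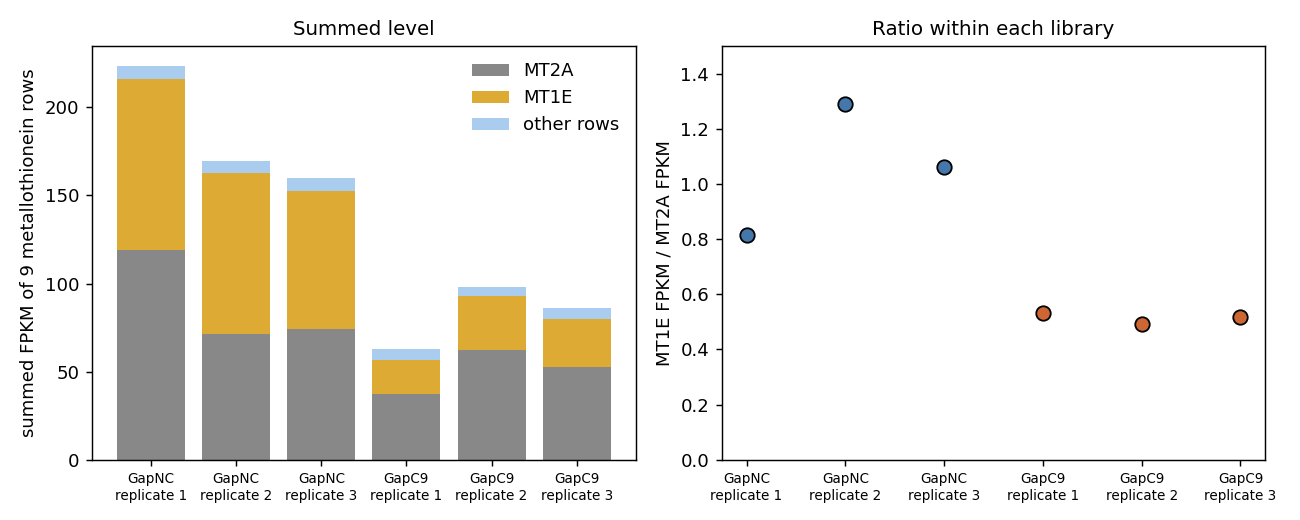
Left, summed FPKM (linear axis from 0) of the 9 metallothionein rows in each of the 6 libraries, divided into MT2A, MT1E and the other rows; right, the FPKM of MT1E divided by that of MT2A in the same library, for GapNC (blue) and GapC9 (orange). The sums are 160.1 to 223.6 FPKM in GapNC and 63.12 to 97.93 FPKM in GapC9, and the ratio lies between 0.491 and 0.531 in GapC9, below all GapNC libraries.

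No other metallothionein analysed here was abundant. Of 17 other human metallothionein genes and pseudogenes looked for by symbol, 4 were found and 2 were above the filter. MT1DP, a pseudogene, was listed at 0.199, 0.282 and 0.151 FPKM in GapNC and at 0.227, 0 and 0.376 FPKM in GapC9, about 1 fragment per library (log2 difference −0.29, standard error 0.60, limma adjusted p = 0.796). MT1P3, a processed pseudogene on chromosome 20 with 54.7% of its 50-base windows in other metallothioneins, was listed at 0.745, 0 and 0.116 FPKM in GapNC and at 1.35, 0.584 and 0.239 FPKM in GapC9 (log2 difference 1.40, standard error 0.90, limma adjusted p = 0.378). Both overlap between the groups. MT1L was listed above 0 in GapNC replicate 3 (0.0155 FPKM) and in GapC9 replicates 1 (0.0245 FPKM) and 2 (0.00733 FPKM), and MT1M only in GapC9 replicate 2 (0.0843 FPKM). In GapNC the levels rank MT1E and MT2A first, with means that differ by less than their spread, then MT1X, then MT1F. In GapC9, MT1P3 (mean 0.724 FPKM) and MT1F (mean 0.597 FPKM) differ by less than the spread of MT1P3. MT2A stood above MT1E in every library labelled GapC9.

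**Figure D3:**
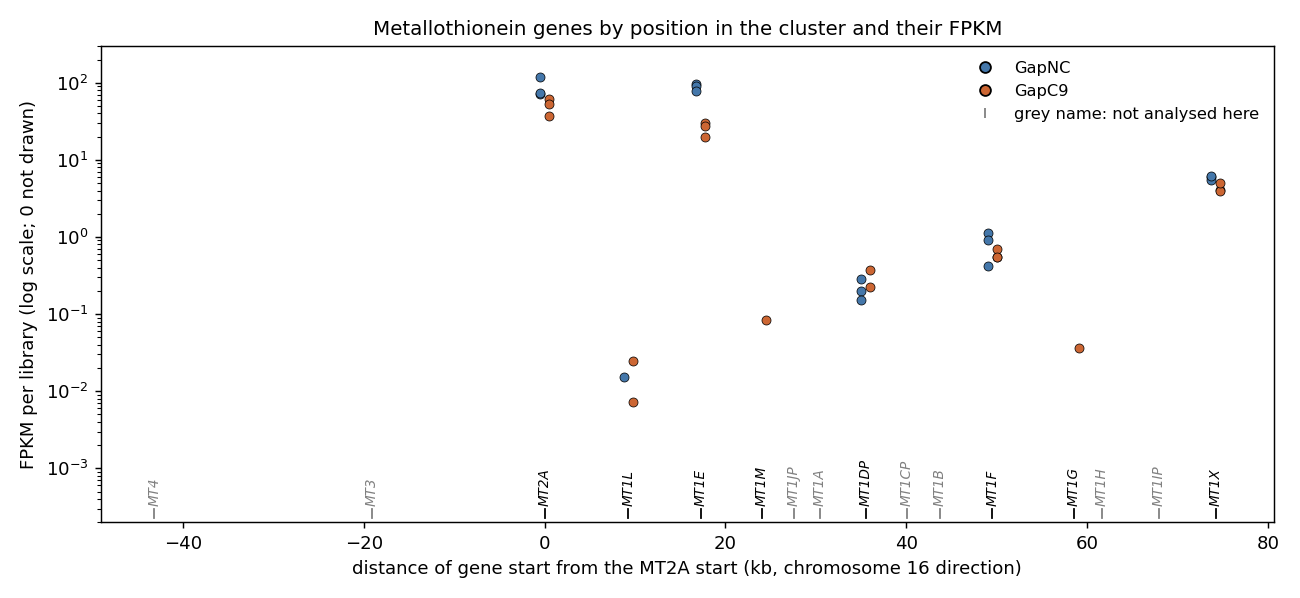
FPKM (log axis) of the metallothionein genes on chromosome 16 in each library against the distance of the gene's start from that of MT2A in kb, for GapNC (blue) and GapC9 (orange); values of 0 are not drawn and genes with grey names were not analysed here. The abundant genes MT2A, MT1E and MT1X are separated by relatives at or below about 1 FPKM.

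The members also varied within the groups. After the group means were taken off, log2(FPKM + 0.1) of MT1E and MT2A had a Pearson correlation of 0.82 over the 6 libraries, that of MT1F and SLC30A1 was 0.75 and that of MT2A and MTF1 was 0.66. It was −0.57 for MT1F and MT2A. It was 0.04 for MT1E and MT1X, 0.14 for MT2A and MT1X, 0.11 for MT1E and SLC30A1, and −0.28 for MT2A and SLC30A1. These correlations share the libraries' depth and base composition, rest on 3 libraries a group, and are given as a description only. Over all 6 libraries, the 5 genes with the pattern most like the mean of the 4 metallothioneins above the filter were SMARCA5, a chromatin remodeling ATPase (r = 0.991), YAP1, the coactivator of Hippo signaling (r = 0.987), GNB1, a G protein beta subunit (r = 0.985), TRAM2 (r = 0.984) and the nucleoporin RANBP2 (r = 0.983). They were taken from 3202 genes that averaged 10 FPKM or more and were never listed at 0. YAP1 stood at 19.2, 22.7 and 22.6 FPKM in GapNC and at 11.9, 13.9 and 13.7 FPKM in GapC9. GNB1 stood at 59.6, 57 and 57.4 FPKM against 32.5, 37.3 and 39 FPKM. In both the groups do not overlap, as for 21.6% of all genes in the lower direction. High correlations and separate groups follow from the choice by likeness to genes chosen on this contrast, and nothing is read from them.

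Promoters of 4 of the 7 genes (MT2A, MT1X, SLC30A1 and MTF1) were matched by symbol in the RefSeq table of GRCh38.p14. The 250 bases before the annotated RefSeq start were searched on both strands for the core of the metal response element, written as TGCACNC and TGCGCNC, where N is any base. Of 35116 promoters of the same length, 24.8% held at least 1 match, 6.48% at least 2 and 0.37% at least 4. The MT2A promoter held 7 matches, and 0.0513% of all promoters held 6 or more. Among relatives whose levels were not analysed here, the promoter of MT1H held 8 and those of MT1B and MT4 held 3 each. The MT1X promoter held 4, that of SLC30A1 held 1 and that of MTF1 held 0. The promoters of MT2A, MT1X and SLC30A1 are printed because the values of their genes lay in opposite directions, with every match in capitals, 5′ to 3′ on the gene's strand.
MT2A, plus strand, chr16:56608334-56608583: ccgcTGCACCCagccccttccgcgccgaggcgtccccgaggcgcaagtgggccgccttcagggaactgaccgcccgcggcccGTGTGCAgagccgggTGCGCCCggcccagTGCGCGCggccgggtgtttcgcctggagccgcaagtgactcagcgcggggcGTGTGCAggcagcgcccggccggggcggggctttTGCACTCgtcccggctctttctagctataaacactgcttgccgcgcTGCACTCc
MT1X, plus strand, chr16:56682220-56682469: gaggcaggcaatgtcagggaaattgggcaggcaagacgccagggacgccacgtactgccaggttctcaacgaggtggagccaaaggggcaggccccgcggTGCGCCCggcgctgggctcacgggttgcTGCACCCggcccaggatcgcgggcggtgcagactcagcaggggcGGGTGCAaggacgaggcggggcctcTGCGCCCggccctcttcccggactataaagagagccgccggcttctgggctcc
SLC30A1, minus strand, chr1:211579162-211579411: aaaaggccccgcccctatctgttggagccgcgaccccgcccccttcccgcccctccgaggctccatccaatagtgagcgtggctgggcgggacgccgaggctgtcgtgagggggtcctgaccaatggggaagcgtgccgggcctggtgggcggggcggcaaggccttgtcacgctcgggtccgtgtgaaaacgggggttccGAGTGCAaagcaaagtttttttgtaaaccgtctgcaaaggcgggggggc
In MT2A the matches began 246, 168, 153, 139, 88, 54 and 8 bases before the start, and in MT1X 150, 122, 78 and 53 bases before it. The match of SLC30A1 began 49 bases before its start and reads TGCACNC on the opposite strand. A match of these letters is not a measured binding site, and these data hold no measure of MTF1 binding. MT2A, with 7 matches, and MT1X, with 4, were lower in the libraries labelled GapC9 (log2 difference −0.79 and −0.44), and SLC30A1, with 1, was higher (0.69). These genes are too few to relate matches to direction, and MT1E had no promoter to search. The RefSeq starts also differ from the gene positions printed above. The window of MT2A lies within its printed gene. It is also part of the 786-base transcript whose GC content and shared windows are given above for MT2A. Its bases thus count both as transcript and as promoter here. The window of SLC30A1 lies upstream of its printed gene, and the bases between them were not searched.

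The other zinc transporters were tested as the remaining part of cellular zinc handling. These genes are on lists written for this description, and their tests are limma's, adjusted over all 16028 genes tested. Of the other genes on the zinc exporter list, 6 of the SLC30 family were tested. With limma, 0 passed an adjusted p of 0.05 in either direction (0 also at an unadjusted p under 0.05). The 3 with the highest level were SLC30A9 (10.9 ± 1.95 against 9.67 ± 0.613 FPKM), SLC30A5 (9.37 ± 1.02 against 9.87 ± 0.862 FPKM) and SLC30A6 (4.76 ± 0.939 against 6.16 ± 2.43 FPKM), each with n = 3 and overlapping groups. Their median log2 difference was 0.15, against −0.076 over all genes.

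Of the zinc importers of the SLC39 (ZIP) family, which bring zinc into the cytosol, 11 were tested, and with limma 3 fell at an adjusted p under 0.05 and 0 rose (2 were higher at an unadjusted p under 0.05), beside 5.1% of all genes called lower and 1.89% higher. By unadjusted p, 1457 of all 16028 genes tested were higher and 2700 lower. SLC39A4, the plasma membrane importer whose loss causes acrodermatitis enteropathica, stood at 6.99, 4.54 and 4.51 FPKM in GapNC and at 2.81, 2.59 and 2.52 FPKM in GapC9. It fell by 0.96 on the log2 scale (standard error 0.20, limma adjusted p = 0.0449). SLC39A11 stood at 2.27, 1.97 and 1.77 FPKM against 1.26, 0.998 and 1.14 FPKM (log2 difference −0.77, standard error 0.15, limma adjusted p = 0.0431). SLC39A13, an importer of intracellular membranes, stood at 5.44, 4.33 and 4.50 FPKM against 2.80, 2.89 and 3.13 FPKM (log2 difference −0.67, standard error 0.13, limma adjusted p = 0.0409). In all 3 the groups do not overlap, as for 21.6% of all genes in the lower direction. These calls are close to the threshold, and with 1 library left out SLC39A4 passed in 1 of 6 fits and SLC39A11 and SLC39A13 in 0. After median scaling or quantile normalization, 0 of the 3 passed. After GC correction SLC39A13 was at −0.34 and did not pass (limma adjusted p = 0.136, within a range of 0.0288 to 0.141 over its alternatives), and SLC39A4, at −0.62, and SLC39A11, at −0.61, passed. The direction was the same in all 15 alternative fits of each. The most abundant importers did not pass. SLC39A14 was 50.9 ± 1.08 FPKM in GapNC and 54.1 ± 1.85 FPKM in GapC9, and SLC39A7, in a row joined with its neighbor HSD17B8, was 36 ± 8.69 and 31.6 ± 0.916 FPKM (SD, n = 3). SLC39A6 stood at 36.4, 31.4 and 33.6 FPKM in GapNC and at 42.4, 44.4 and 60.1 FPKM in GapC9, a log2 difference of 0.52 (standard error 0.16, limma adjusted p = 0.106) with groups that do not overlap. The list's median log2 difference was −0.16.

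**Figure D4:**
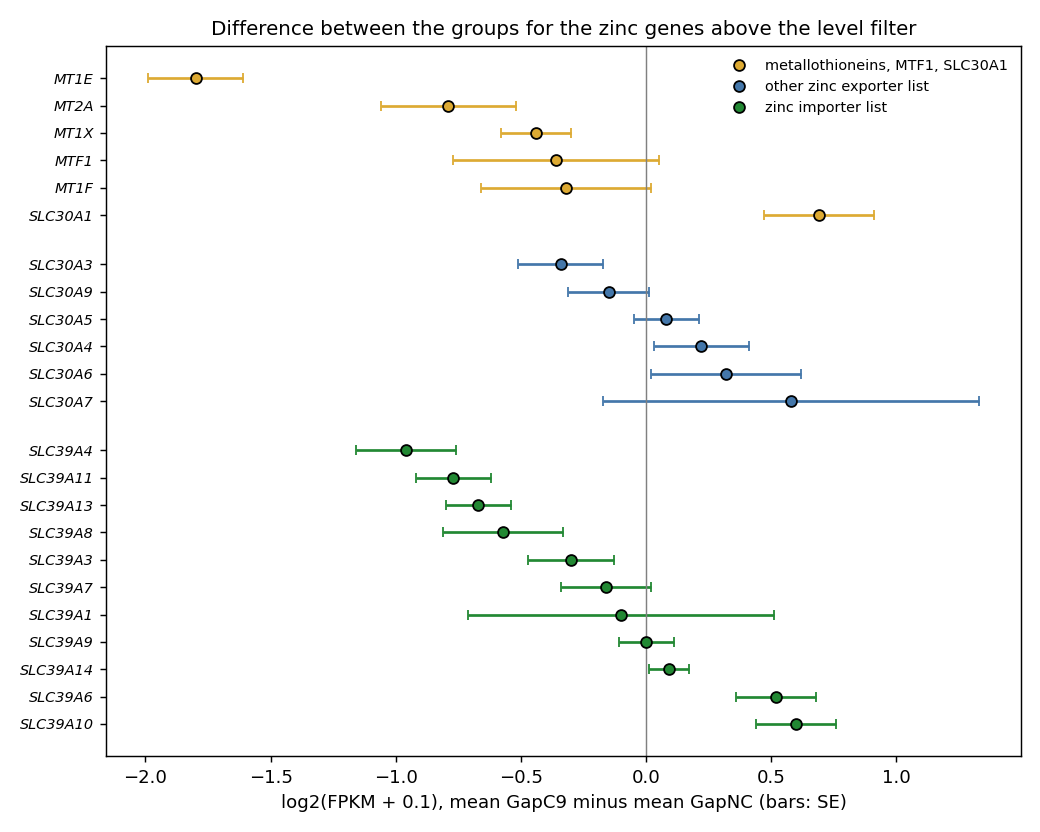
Mean log2(FPKM + 0.1) in GapC9 minus that in GapNC (x axis) with its standard error, for the metallothioneins, MTF1 and SLC30A1 (yellow), the other zinc exporters (blue) and the zinc importers (green) that passed the filter, in order within each list. MT1E has the lowest value at −1.80, SLC30A1 lies at 0.69, and the importers extend from −0.96 (SLC39A4) to 0.60 (SLC39A10).

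Copper is bound by metallothioneins too, and 14 genes of copper handling were tested, of which 1 fell and 0 rose with limma (3 lower and 1 higher at an unadjusted p under 0.05), a share near the 5.1% called lower among all genes. ATP7B, a copper-exporting ATPase, stood at 0.870, 0.987 and 0.920 FPKM in GapNC and at 0.360, 0.557 and 0.378 FPKM in GapC9 (log2 difference −0.97, standard error 0.19, limma adjusted p = 0.0424). It passed neither with any 1 library left out nor after median scaling or quantile normalization. The most abundant were SOD1, the cytosolic superoxide dismutase (83.1 ± 12.9 against 69.9 ± 16.6 FPKM), STEAP3 (9.21 ± 2.02 against 6.57 ± 0.782 FPKM) and SCO1 (6.84 ± 0.807 against 8.33 ± 0.175 FPKM), each with n = 3 and none past the threshold. Of 13 genes of iron handling, 0 passed in either direction with limma (2 lower and 0 higher by unadjusted p). For both lists, the unadjusted counts stand beside 2700 lower and 1457 higher of all 16028 genes tested. FTL, the ferritin light chain, was at 2820 ± 370 FPKM in GapNC and 2110 ± 90.3 FPKM in GapC9 (SD, n = 3, limma adjusted p = 0.0753), and FTH1, the heavy chain, at 231 ± 24 and 278 ± 28 FPKM (SD, n = 3). PCBP1, an iron chaperone, was listed at 2.22 FPKM in GapC9 replicate 3 and at 135 to 162 FPKM in the other 5 libraries.

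A list built around targets of NRF2, the regulator of the oxidative stress response, which also induces metallothioneins, had calls in both directions. The list also holds NFE2L2, which encodes NRF2, with KEAP1 and MAFG, the last in a row joined with SIRT7. Of 19 tested, 2 rose and 1 fell with limma, beside 1.89% of all genes called higher and 5.1% lower. SRXN1, the sulfiredoxin that restores peroxiredoxins, in a row joined with AL121758.1, rose from 24.9 ± 1.39 to 37.3 ± 1.81 FPKM (SD, n = 3, log2 difference 0.58, standard error 0.09, limma adjusted p = 0.0286). ABCC3, an efflux pump of conjugates, rose from 1.35 ± 0.0626 to 2.02 ± 0.0646 FPKM (SD, n = 3, limma adjusted p = 0.0446). ABCC2, another such pump, fell from 10.2 ± 0.479 to 7.04 ± 0.220 FPKM (SD, n = 3, limma adjusted p = 0.0354). With 1 library left out, SRXN1 and ABCC2 passed in 1 of 6 fits each and ABCC3 in 0, and ABCC2 did not pass after median scaling. The most abundant were PRDX1 (448 ± 48.1 against 428 ± 50.2 FPKM), TXN (155 ± 8.26 against 172 ± 7.03 FPKM) and TXNRD1 (103 ± 22.9 against 173 ± 8.44 FPKM, limma adjusted p = 0.0594), with n = 3. By unadjusted p the counts were 6 higher and 3 lower, beside 1457 higher and 2700 lower of all 16028 genes tested. The groups did not overlap for 8 higher and 3 lower genes of the list, beside 12.6% and 21.6% of all genes. The list's median log2 difference was 0.18, against −0.076 over all genes.

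Glucocorticoids are the other classical inducers of metallothioneins. Of 10 genes of the glucocorticoid response, 1 rose and 0 fell with limma (2 and 0 by unadjusted p). Among all 16028 genes tested, 1.89% were called higher and 5.1% lower (1457 and 2700 genes by unadjusted p). The kinase SGK1 rose from 0.409 ± 0.0245 to 0.727 ± 0.0333 FPKM (SD, n = 3, limma adjusted p = 0.0447). It is also induced by signals other than glucocorticoids, and it passed in 0 of the 6 fits with 1 library left out. The receptor NR3C1 was at 3.85 ± 0.446 and 3.83 ± 0.118 FPKM, ERRFI1 at 73.1 ± 10.8 and 96 ± 2.55 FPKM, and the row that joins PER1 with VAMP2 and AC129492.3 at 6.07 ± 0.301 and 7.39 ± 1.29 FPKM (SD, n = 3). ZFP36 was listed at 0.475 FPKM in GapC9 replicate 3 and at 23.6 to 27.3 FPKM in the other libraries.

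The partners of MTF1 at metallothionein promoters were measured with 0 of 3 past limma's threshold in either direction (1 higher and 0 lower by unadjusted p). Among all 16028 genes tested, 1457 were higher and 2700 lower by unadjusted p. The acetyltransferases EP300 and CREBBP were at 8.60 ± 0.135 against 10.1 ± 0.363 FPKM and at 9.47 ± 1.10 against 8.75 ± 0.452 FPKM (SD, n = 3). SP1 stood at 5.22, 12.7 and 5.46 FPKM in GapNC and at 4.11, 4.26 and 4.57 FPKM in GapC9, with GapNC replicate 2 apart from the other controls.

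The genes on both sides of the metallothionein cluster are given as a description, and a change of the whole stretch of chromosome 16 was not tested. Of 15 neighbors tested, 1 fell and 0 rose with limma (3 and 3 by unadjusted p), with a median log2 difference of −0.11. Among all 16028 genes tested, 5.1% were called lower and 1.89% higher (2700 and 1457 genes by unadjusted p). The groups did not overlap for 4 lower and 3 higher neighbors, beside 21.6% and 12.6% of all genes. CPNE2, a calcium-dependent membrane-binding protein, fell from 4.69 ± 0.588 to 2.52 ± 0.175 FPKM (SD, n = 3, log2 difference −0.86, standard error 0.14, limma adjusted p = 0.0286). The most abundant, NUDT21 (38.6 ± 6.75 against 30.6 ± 17.1 FPKM), ARL2BP (25.8 ± 1.91 against 23.6 ± 8.03 FPKM) and CIAPIN1 (18.5 ± 1.88 against 20.4 ± 3.43 FPKM), overlapped between the groups. CPNE2 passed in 1 of the 6 fits with 1 library left out.

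Correction for GC content moved the members without changing a direction. With the trend on GC content taken off each library, the log2 difference was −1.61 for MT1E, −0.61 for MT2A, −0.30 for MT1X and 0.58 for SLC30A1. MT1F moved most in proportion, from −0.32 to −0.13, and MTF1 was at −0.33. The members were also searched for stretches complementary to the GapmeRs. The longest run pairing with the 16 bases of the CASC9 GapmeR was 5 bases in MT1E and MT1G, 6 in MT1F and MT2A, and 8 in MT1X, MTF1 and SLC30A1, a length that 15.7% of 206534 annotated transcripts reach. With the control GapmeR, also of 16 bases, it was 6 to 9 bases, with 9 in MT1F and MT1X, a length that 4.8% of the transcripts reach. Introns were not searched.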

How the data were processed

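HCT-116 cells were sequenced in 3 GapNC and 3 GapC9 libraries (paired-end poly(A) RNA). After alignment with HISAT, the authors computed FPKM values with StringTie and deposited them as 1 table. The submitters' processing notes name HISAT2 2.0, StringTie 1.3.0 and Bowtie 0.12.2, and a mouse build, although the cells are human. The strand setting is not given in the sources used here. No counts were used, so edgeR, named by the study, was not run, and no counting error can be given. FPKM is relative to the mapped fragments of a library, and StringTie can join neighboring loci or list a gene at 0 in 1 library.

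Groups came from the sample labels, and 0 sample columns were left unused. In R 4.3.3, limma 3.58.1 (lmFit, eBayes with a mean-variance trend, two-sided, Benjamini-Hochberg) was fitted to log2(FPKM + 0.1) of the 16028 rows with a mean of at least 0.1 FPKM. For low genes the pseudocount shrinks the difference. Fragments were estimated from the commonest step between low values and the reference transcript's length, and are approximate. The 7 genes, the lists (zinc exporters and importers, copper, iron, NRF2 targets, glucocorticoid response, MTF1 partners, cluster neighbors, cell markers) and the rule for naming genes were chosen with earlier results of these data known. The rule names every member, each other metallothionein listed above 0, genes of a list with an adjusted p under 0.05 or among its 3 most abundant, and the 5 genes most like the metallothioneins. A gene of the glucocorticoid list is not reported here. SLC39A10 and NR3C1 were named after their values were seen. Positions, GC content (99.3% of genes tested matched) and coding sequences came from GENCODE on GRCh38 and promoters from RefSeq (GRCh38.p14), read with Python 3.11.15 and Biopython 1.88. The fit was tested on simulated data. Alternatives were pseudocounts of 1 and 0.01, a filter at 1 FPKM or none, median scaling, quantile normalization, GC correction (lowess, span 0.3), no variance trend, a replicate block and each library left out.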

Additional observations from a re-analysis of the deposited data

How the results depend on the processing

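The log2 differences of the 6 members tested kept their direction in the alternatives run (MT1F falls below the filter at 1 FPKM and has no value there), and the ratio of summed metallothionein FPKM was 0.404 to 0.499 with 1 library left out, 0.479 after median scaling and 0.442 over the 5 member metallothioneins. The counts of genes past an adjusted p of 0.05 were less stable. They were 817 lower and 303 higher in the fit reported, 346 and 146 with no filter and 1233 and 1055 after GC correction, while lower genes numbered 534 after median scaling and 516 after quantile normalization. With 1 library left out they were 16 to 570 lower and 16 to 240 higher, and only without GapNC replicate 1 were they above 84 lower and 38 higher. The share of lower genes among those called in the fit reported was 72.9%, and 59.7% after median scaling, 59.8% after quantile normalization and 53.9% after GC correction. With 1 library left out it was 48.6% (without GapC9 replicate 2) to 70.4% (without GapNC replicate 1). By the ratio of means (693 lower, 336 higher, 67.3% lower), 380 were lower and 116 higher with the filter at 1 FPKM and 555 higher with no filter, and the share of lower genes was 54.1% after median scaling. On the zinc and metal lists together, 62 genes were tested, with 5 lower and 2 higher, beside 5.1% and 1.89% of all genes. Lower genes numbered 1 with no filter, 2 without the variance trend and 0 after median scaling or quantile normalization (9 and 7 at an unadjusted p under 0.05 in limma). Higher genes numbered 1 with a pseudocount of 1 or no filter, 4 with the filter at 1 FPKM and 10 after GC correction. The lists gave 3 lower and 3 higher without GapNC replicate 1, and 0 in both directions without any other single library. The cause of these shifts was not tested. Deviations of same-numbered libraries from their group means correlated at 0.11, −0.007 and 0.035, not all above 0.1, so the libraries were treated as sharing only a number, which does not show that they are unpaired. With the replicate block, 0 genes were lower and 0 higher at an adjusted p under 0.05 in limma, both overall (2952 and 1618 at an unadjusted p under 0.05) and on the lists (14 and 14). MT1F, MT1G and the other rare metallothioneins rest on at most 17.8 fragments per library, and their values are the least precise.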
